A study of Homo sapiens with 3 samples.

Results

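The genes described here encode 10 extracellular matrix proteins: fibronectin (FN1), tenascin C (TNC), SPARC, thrombospondin 1 (THBS1), the type IV collagen chains COL4A1 and COL4A2, type VII collagen (COL7A1), perlecan (HSPG2) and the laminin chains LAMB1 and LAMC1. They were taken by symbol, as all probe sets annotated to 1 of these symbols and to no other gene. This gave 41 probe sets for 10 genes, out of 18132 genes that have such a probe set in the deposited table. RNA had been taken from KYSE150, a cell line established from a human squamous carcinoma of the oesophagus, at 48 h after transient transfection with pcDNA3.1 carrying LOXL2 delta72, with pcDNA3.1 carrying LOXL2 WT, or with vector (Control). All 3 groups are therefore transfected KYSE150 cells that differ in the plasmid, and delta72 is named but not described in the labels. LOXL2 is lysyl oxidase like 2, a secreted copper-dependent amine oxidase that crosslinks matrix proteins such as collagen IV. Each group had 1 Affymetrix array, so no significance test is possible, no p-value is given, and "higher" and "lower" describe single arrays.

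Epithelial cells make the basement membrane, a sheet in which laminin trimers and a collagen IV network are held together by perlecan and nidogen. Collagen VII forms the anchoring fibrils that fix the basement membrane of squamous epithelia to the tissue beneath. Fibronectin is an adhesive glycoprotein assembled into fibrils at the cell surface. TNC, SPARC and THBS1 are matricellular proteins, which sit in the matrix and change how cells attach to it more than they build it.

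The arrays had near-equal overall levels, with medians of log2 5.94 (LOXL2 delta72), 5.93 (LOXL2 WT) and 5.95 (Control). The brightest LOXL2 probe set read 14.06 with LOXL2 delta72 and 14.05 with LOXL2 WT, against 7.46 in Control, and 3 of its 4 probe sets were higher on both LOXL2 arrays. The remaining one read 8.66 with LOXL2 delta72 and 8.32 with LOXL2 WT, against 8.81 in Control. This matched the labels as to LOXL2 plasmid or vector, but cannot tell the delta72 array from the WT array. Of the 9 squamous marker genes chosen, 6 were in the table used here and all 6 lay above the brightness filter, which was set at log2 5.27. Of the 8 fibroblast markers, 7 lay below it, COL1A1, COL1A2, COL3A1, DCN and LUM among them. The summed linear intensity of the fibroblast list was 204.4 (LOXL2 delta72), 210.9 (LOXL2 WT) and 205.5 (Control), and that of the squamous list 7446, 8048 and 8677 in the same order. The endothelial list, with 3 of 5 markers above the filter, summed to 204.7, 208.7 and 207.8. The leukocyte list, with 2 of 4, summed to 467.3, 405.7 and 568.0, most of it from CD68, a lysosomal protein. The part of these levels in the results below was not tested.

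With no replicate arrays, 3 yardsticks stand beside each difference. The first is the set of 23 background probe sets on the array. Their largest difference in either direction was 0.17 for LOXL2 delta72 minus Control, 0.29 for LOXL2 WT minus Control and 0.15 for LOXL2 delta72 minus LOXL2 WT. On the delta72 array 14 of the 23 read lower and 8 higher than in Control, on the WT array 16 read lower and 7 higher, and 20 of 23 read higher with delta72 than with WT, so small differences in these directions also occurred where no gene is measured. The second is the central 95% of the 12232 genes above the filter. The third is the SD over the probe sets of a gene, called probe SD below, which shows how far different probes agree on the same arrays and holds no biological error. All values are log2 intensities as deposited, and each gene is read at its brightest probe set unless stated. Levels are compared between arrays for the same probe set, not between genes.

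Promoter sequences are shown for TNC and COL7A1, the 2 genes that read furthest above Control with LOXL2 delta72, and for the collagen IV pair, whose genes lie head to head. The letters come from RefSeq (GRCh38.p14) and run 5′ to 3′. For TNC (chr9:115118158-115118407, minus strand) and COL7A1 (chr3:48595330-48595579, minus strand) they are the 250 bases before the annotated start. For the pair they are the 126 bases between the start of COL4A1 and that of COL4A2 (chr13:110307158-110307283, plus strand). Capitals mark matches on either strand to the TATA box core TATAA, to the motif CCAAT of the CCAAT box, or to the GC box core GGGCGG. The cyclic AMP response element TGACGTCA and the AP-1 motif TGANTCA were searched too and had no match in these stretches. No match overlaps one of another motif.
TNC: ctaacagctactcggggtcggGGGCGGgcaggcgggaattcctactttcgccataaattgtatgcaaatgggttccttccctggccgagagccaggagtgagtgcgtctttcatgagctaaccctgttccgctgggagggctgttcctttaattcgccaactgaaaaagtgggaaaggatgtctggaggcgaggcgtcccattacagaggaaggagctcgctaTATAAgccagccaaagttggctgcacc
COL7A1: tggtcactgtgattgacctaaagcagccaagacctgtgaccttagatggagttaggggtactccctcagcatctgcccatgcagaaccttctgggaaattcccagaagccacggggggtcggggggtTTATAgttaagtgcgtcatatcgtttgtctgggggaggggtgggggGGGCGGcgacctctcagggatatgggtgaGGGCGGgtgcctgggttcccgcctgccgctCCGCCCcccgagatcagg
COL4A1-COL4A2: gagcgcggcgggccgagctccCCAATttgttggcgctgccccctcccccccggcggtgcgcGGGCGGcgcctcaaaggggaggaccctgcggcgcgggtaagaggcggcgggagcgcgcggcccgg

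TNC had a TATAA match from 27 to 23 bases before its start, where a TATA box lies in genes that have one, and COL7A1 had one on the reverse strand from 123 to 119 bases before its start. The collagen IV pair held no TATAA match in the 126 bases between its starts. It held 1 CCAAT match, which begins 22 bases from the COL4A1 start and 105 bases from the COL4A2 start, and 1 GGGCGG match near the middle. Over the 250 bases before the start, GGGCGG was found in 9 of the 10 genes, all but SPARC, and in 42.6% of 35116 RefSeq promoters of that length. The 1 match of COL4A2 is also counted for COL4A1. CCAAT was found in 4 of the 10 (FN1, THBS1, COL4A1 and COL4A2, the last pair sharing 1 match) and in 32.0% of all. TATAA was found in 3 of the 10 (FN1, TNC and COL7A1) and in 18.9% of all. TGACGTCA was found in FN1 alone among the 10 and in 1.65% of all, and TGANTCA in 0 of the 10 and in 6.57% of all. These are letter matches in 1 window and were not tested as sites. In G and C content of the 250 bases, TNC was the lowest of the 10 at 54.8% and HSPG2 the highest at 82.8%. The others ran from 59.2% (SPARC) to 79.6% (LAMC1), and the median promoter held 58.0%, so all but TNC lay above it.

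All 10 genes passed the brightness filter, with 30 of their 41 probe sets above it. The genes with the most probe sets above it were FN1 with 6, and THBS1 and LAMC1 with 5 each, while COL7A1 and HSPG2 each rested on 1. Of the 30, 6 carry the Affymetrix suffix _x_at, which marks probes that may also bind other sequences: both of SPARC, the 1 of HSPG2 and 3 of FN1.

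**Figure D1:**
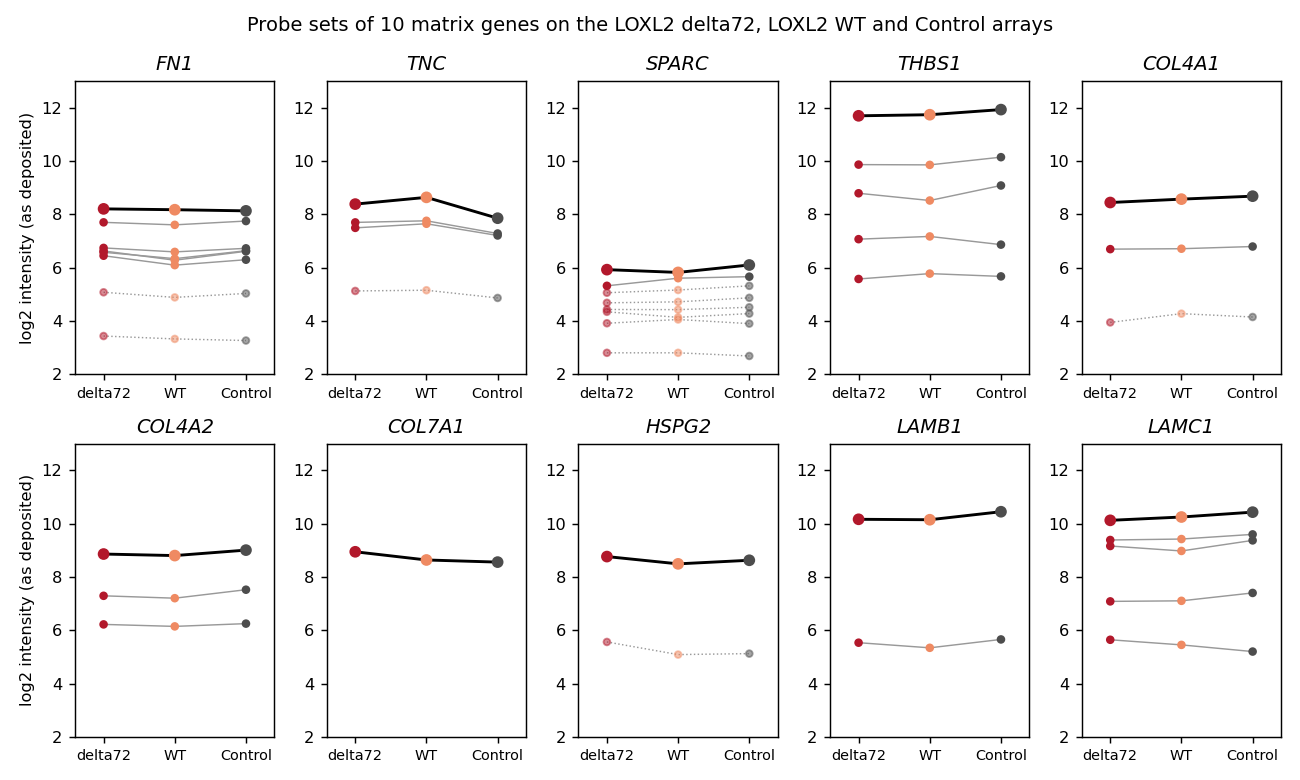
Log2 intensity (vertical axis, as deposited) of every probe set of the 10 genes on the LOXL2 delta72, LOXL2 WT and Control arrays (horizontal axis, 1 array each). The thick black line is the brightest probe set, grey lines are other probe sets above the filter of 5.27 and dotted lines those below it; all 4 lines of TNC and the single line of COL7A1 are lowest in Control.

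Across the 10 genes, most differences from Control were small, and somewhat more genes read lower than higher. The background probe sets leaned the same way, with 14 of 23 lower for LOXL2 delta72 and 16 of 23 for LOXL2 WT. Whether the 10 genes depart from the share of all genes was not tested. With LOXL2 delta72, 6 of 10 genes read lower than in Control, where 49.8% of the 12232 genes did, and the members' median difference was -0.16 against 0 for all genes. With LOXL2 WT, 7 of 10 read lower, where 51.7% of all genes did, with a median of -0.16 against -0.01 (all genes). With each array read at the median level over all of a gene's probe sets, 9 of the genes were left above the filter. Their medians were -0.10 with LOXL2 delta72 and -0.31 with LOXL2 WT, against 0 and -0.01 for all genes. This takes the middle level on each array and is not the median of the probe-set differences. TNC with LOXL2 WT was the single member at least 1.5-fold different from Control in either comparison. With LOXL2 delta72, 0 of 10 were at least 1.5-fold higher, against 1.28% of all genes, and 0 of 10 at least 1.5-fold lower, against 0.499%. With LOXL2 WT the counts were 1 of 10 higher, against 1.85% of all genes, and 0 of 10 lower, against 0.867%. With the arrays brought to 1 common median, the numbers of all genes at least 1.5-fold higher and lower were 123 and 77 with LOXL2 delta72, in place of 157 and 61, and 169 and 139 with LOXL2 WT, in place of 226 and 106. Both comparisons use the same Control array, so a reading particular to it would appear in both.

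TNC, an adhesion-modulating glycoprotein found at wound edges and in tumour stroma, was the member furthest from Control. Its brightest probe set read 8.38 with LOXL2 delta72 and 8.63 with LOXL2 WT, against 7.85 in Control. Both LOXL2 arrays were higher than Control, and the WT array was the highest. The difference from Control was 0.53 with LOXL2 delta72 (1.44-fold, probe SD 0.12 over 3 probe sets) and 0.78 with LOXL2 WT (1.72-fold, probe SD 0.19). Among all genes these placed it at rank 214 and rank 70 from the highest, outside the central 95% both times.

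Every other TNC probe set had the same order. The second brightest read 7.69 with LOXL2 delta72, 7.75 with LOXL2 WT and 7.28 in Control, and the third 7.49, 7.64 and 7.20 in the same order of arrays. The fourth, below the filter, read 5.12, 5.15 and 4.86. The brightest probe set thus gave the largest TNC differences, while the others lay between 0.26 and 0.42 with LOXL2 delta72 and between 0.29 and 0.48 with LOXL2 WT. Read at any of its 3 dimmer probe sets, TNC was under 1.5-fold.

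The other matricellular members were on the lower side. THBS1, a trimeric glycoprotein that activates latent TGF-beta and binds CD47 and CD36, read 11.69 with LOXL2 delta72 and 11.74 with LOXL2 WT, against 11.93 in Control. Control was the highest of the arrays, and the difference was -0.23 with LOXL2 delta72 (probe SD 0.21 over 5 probe sets) and -0.19 with LOXL2 WT (probe SD 0.34). The THBS1 probe sets did not agree. The 3 brightest were lower than Control with both plasmids, by as much as -0.56 for the third with LOXL2 WT, whereas the fourth read 7.06 with LOXL2 delta72 and 7.17 with LOXL2 WT, against 6.86 in Control.

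SPARC, a collagen-binding glycoprotein that acts in collagen secretion and assembly, lay near the filter. Its brightest probe set read 5.92 with LOXL2 delta72 and 5.82 with LOXL2 WT, against 6.10 in Control, which is a difference of -0.18 (probe SD 0.12 over 2 probe sets) and of -0.28 (probe SD 0.16). Control was again the highest array, and the second probe set, at 5.31, 5.60 and 5.66, had Control highest too. The other 6 SPARC probe sets averaged below the filter and went in either direction, from -0.26 to 0.12 with LOXL2 delta72 and from -0.16 to 0.15 with LOXL2 WT. It is not known whether SPARC lay above background in these cells.

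FN1 stayed close to Control at its brightest probe set. It read 8.20 with LOXL2 delta72 and 8.17 with LOXL2 WT, against 8.13 in Control. These differences, 0.07 with LOXL2 delta72 (probe SD 0.08 over 6 probe sets) and 0.04 with LOXL2 WT (probe SD 0.13), were smaller than the largest difference among background probe sets, and the one with LOXL2 WT changed sign under quantile normalization. The 5 dimmer probe sets above the filter were all lower with LOXL2 WT than in Control, from -0.33 to -0.13, so the direction of FN1 on the WT array depended on the probe set. With LOXL2 delta72 they lay between -0.06 and 0.15.

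The laminin chains were lower on both LOXL2 arrays at their brightest probe set, though not always beyond the background probe sets. LAMB1 and LAMC1 encode the beta1 and gamma1 chains, which join an alpha chain in most laminin trimers other than laminin-332. LAMB1 read 10.16 with LOXL2 delta72 and 10.15 with LOXL2 WT, against 10.45 in Control, a difference of -0.28 (1.22-fold lower, probe SD 0.11 over 2 probe sets) and of -0.30 (1.23-fold lower, probe SD 0.01). LAMC1 read 10.13 with LOXL2 delta72 and 10.25 with LOXL2 WT, against 10.43 in Control, a difference of -0.31 (1.24-fold lower, probe SD 0.32 over 5 probe sets) and of -0.18 (1.14-fold lower, probe SD 0.25). Control was the highest array for both chains at their brightest probe set. LAMC1 with LOXL2 WT lay within the background limit of 0.29, and both LAMC1 differences were smaller than their probe SD.

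The 4 brightest LAMC1 probe sets and both of LAMB1 were lower with each plasmid. The dimmest LAMC1 probe set went the other way, at 5.64 with LOXL2 delta72 and 5.45 with LOXL2 WT, against 5.20 in Control. With LOXL2 delta72, LAMC1 and LAMB1 were the lowest of the 10 genes and stood at the 5.38th and 6.48th percentile of all genes, inside the central 95%.

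The collagen IV chains were also on the lower side, by less. COL4A1 and COL4A2 form the trimer that is the main collagen of basement membranes, and their promoter stretch is printed above. COL4A1 read 8.44 with LOXL2 delta72 and 8.57 with LOXL2 WT, against 8.68 in Control, which gives -0.24 (probe SD 0.10 over 2 probe sets) and -0.11 (probe SD 0.02). COL4A2 read 8.86 with LOXL2 delta72 and 8.80 with LOXL2 WT, against 9.01 in Control, which gives -0.15 (probe SD 0.10 over 3 probe sets) and -0.20 (probe SD 0.11). Control was the highest array for both chains, and all 5 of their probe sets above the filter were lower with each plasmid. Only COL4A1 with LOXL2 delta72 went beyond the background limit. The COL4A1 probe set below the filter was at -0.20 with LOXL2 delta72 and 0.13 with LOXL2 WT. COL4A1 minus COL4A2, taken between their differences from Control, was -0.09 with LOXL2 delta72 and 0.09 with LOXL2 WT.

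COL7A1 and HSPG2 read highest on the delta72 array. COL7A1 read 8.94 with LOXL2 delta72 and 8.64 with LOXL2 WT, against 8.56 in Control, on its only probe set. The delta72 array stood above the other two, which lay close together. The difference from Control was 0.39 with LOXL2 delta72 (1.31-fold, rank 564 from the highest, inside the central 95%) and 0.08 with LOXL2 WT, and no probe SD can be had. HSPG2, the heparan sulphate proteoglycan of basement membranes, read 8.76 with LOXL2 delta72 and 8.49 with LOXL2 WT, against 8.63 in Control. Its differences, 0.14 and -0.13, were below the largest background difference each time, and its dimmer probe set, just under the filter, read 5.56, 5.09 and 5.12 on the delta72, WT and Control arrays.

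**Figure D2:**
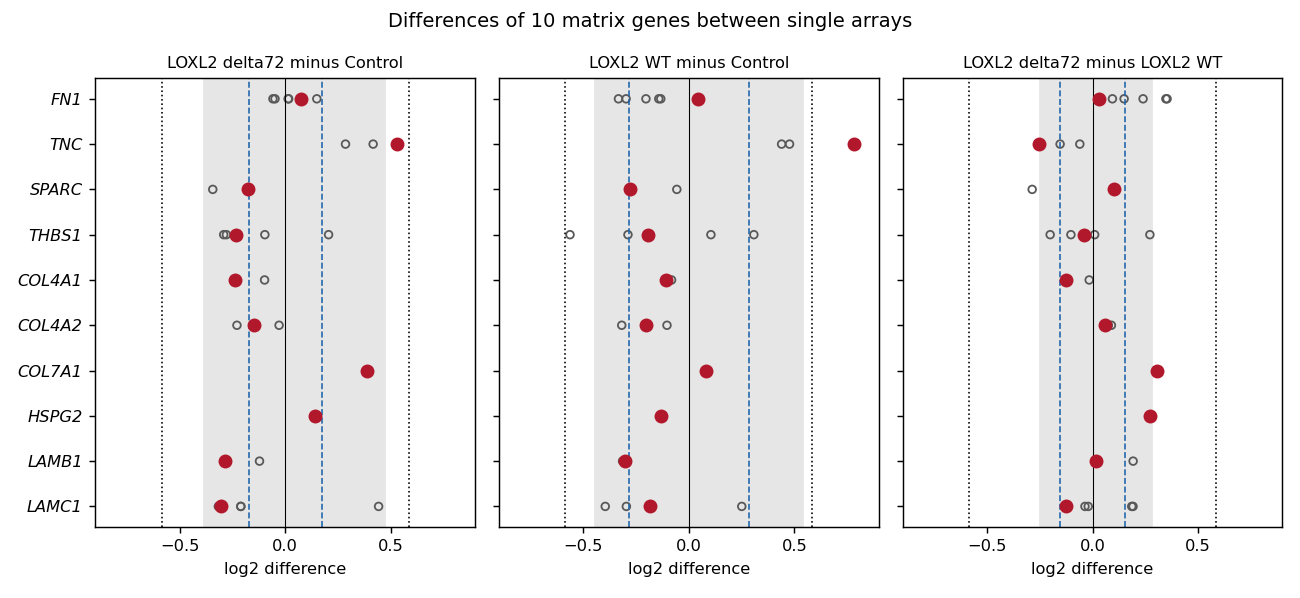
Log2 differences (horizontal axis) of the 10 genes (rows) in the 3 comparisons, as filled points for the brightest probe set and open points for other probe sets above the filter. The grey band holds the central 95% of 12232 genes, dashed lines mark the widest difference among background probe sets and dotted lines 1.5-fold; TNC lies right of the band in both comparisons with Control and just left of it between LOXL2 delta72 and LOXL2 WT.

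Set against the background probe sets, 7 of the 10 genes differed from Control by more than any of them with LOXL2 delta72, where 36.0% of all genes did. TNC and COL7A1 were higher, and SPARC, THBS1, COL4A1, LAMB1 and LAMC1 lower, with SPARC at the limit. With LOXL2 WT the same held for 2 of 10, TNC on the higher side and LAMB1 on the lower, where 21.7% of all genes did. The limit was wider in this comparison, 0.29 in place of 0.17. Pooled over 7163 genes with several probe sets above the filter, the probe SD was 0.15 with LOXL2 delta72 and 0.17 with LOXL2 WT. A difference past the limit can thus still lie within the disagreement between probe sets of a gene, as that of LAMC1 with LOXL2 delta72 did. One gene of 10, TNC, lay outside the central 95% in each comparison with Control, where 5.00% of all genes lie by construction.

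The comparison of LOXL2 delta72 with LOXL2 WT does not use the Control array. In it 6 of 10 genes read higher with delta72, where 50.4% of all genes did, with a median difference of 0.02 against 0.00 for all genes. With each array read at the median level over all of a gene's probe sets, that median was 0.19, with 7 of 9 genes higher. So read, the median of all genes was 0.00, with 48.9% of them lower. This takes the middle level on each array and is not the median of the probe-set differences. For THBS1 and LAMC1 it gave 0.27 and 0.19, where the medians of the differences of their probe sets above the filter were -0.04 and -0.02. None of the 10 was at least 1.5-fold different, where 0.180% of all genes were higher and 0.0409% lower. COL7A1 was 0.31 higher with LOXL2 delta72 (1.24-fold, rank 224 from the highest) and HSPG2 0.27 higher (1.21-fold, rank 327). TNC was lower with LOXL2 delta72, at -0.25 (1.19-fold lower, probe SD 0.10), and lay at the 2.38th percentile. COL7A1 and TNC were the 2 of 10 outside the central 95%, and these 3 genes were the ones beyond every background probe set, where 20.6% of all genes were.

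The 6 FN1 probe sets above the filter were all higher with LOXL2 delta72 than with LOXL2 WT, although the brightest differed by only 0.03. The next ones in brightness gave 0.09, 0.15, 0.24, 0.35 and 0.35, so among these 6 the FN1 difference was larger at each dimmer probe set. The 2 probe sets below the filter gave 0.19 and 0.11. The 3 that gave 0.24, 0.35 and 0.35 carry the suffix _x_at. Of the paired chains, COL4A1 was at -0.13 and COL4A2 at 0.06, and LAMC1 at -0.12 and LAMB1 at 0.02, all within the background limit of 0.15. The direction of LAMC1 depended on the probe set, with 2 of 5 higher and 3 lower, and with the median over probe sets LAMC1 was at 0.19 and LAMB1 at 0.10. All 3 COL4A2 probe sets were higher with LOXL2 delta72 than with LOXL2 WT, and both COL4A1 probe sets above the filter were lower.

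The genes whose 2 differences from Control lay closest to those of TNC, by Euclidean distance in these 2 differences, were ZNF292 (0.51 with LOXL2 delta72 and 0.75 with LOXL2 WT, distance 0.033), VTI1A (0.56 and 0.76, distance 0.037) and ZMPSTE24 (0.53 and 0.74, distance 0.038). For COL7A1 they were MYDGF (0.40 and 0.08, distance 0.011), KLHL15 (0.38 and 0.10, distance 0.021) and GADD45B (0.38 and 0.05, distance 0.030).

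Other matrix genes were read from lists, of which members in the table and above the filter are counted. Beside these counts, 49.8% of all genes read lower than Control with LOXL2 delta72 and 51.7% with LOXL2 WT. Of the 23 background probe sets, 14 and 16 read lower in the same order. Whether any list departs from these shares was not tested. Of 20 further basement membrane genes, 17 were in the table used here and 11 above the filter. With LOXL2 delta72, 6 of the 11 read higher and 5 lower than Control (median 0.01), and with LOXL2 WT 3 read higher and 8 lower (median -0.13), with 0 of them at least 1.5-fold different either time. COL4A6, a collagen IV chain of some epithelial basement membranes, read 6.70 with LOXL2 delta72 and 6.71 with LOXL2 WT, against 6.15 in Control, a difference of 0.55 and 0.57. Its 3 probe sets were all higher with LOXL2 WT, and 2 of 3 with LOXL2 delta72 (probe SD 0.31). The median of its probe-set differences was 0.05 with LOXL2 delta72 and 0.12 with LOXL2 WT, within the background limits, so the larger values rest on the brightest probe set. LAMB3, the beta chain of laminin-332, read 11.17 with LOXL2 delta72 and 10.94 with LOXL2 WT, against 10.84 in Control, or 0.33 and 0.10, on the opposite side from LAMB1. LAMC3 was at -0.40 with LOXL2 delta72 and -0.15 with LOXL2 WT, and NID1, which links laminin to collagen IV, at -0.22 and -0.24, each on 1 probe set.

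Of 16 fibrillar and other collagens, 7 lay above the filter. With LOXL2 delta72, 6 of them read higher and 1 lower (median 0.09), and with LOXL2 WT 4 higher and 3 lower (median 0.00). COL5A2, a chain of the type V collagen that regulates fibril width, read 6.14 with LOXL2 delta72 and 6.29 with LOXL2 WT, against 5.69 in Control, on 1 probe set. Both LOXL2 arrays were above Control, by 0.45 and 0.60, and the WT difference was at least 1.5-fold. COL6A1 was at -0.06 with LOXL2 delta72 and -0.28 with LOXL2 WT (5 of 5 probe sets lower), COL16A1 at 0.22 and 0.17, and COL5A3 at 0.10 and -0.03.

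Among 17 further matricellular genes, 9 lay above the filter. With LOXL2 delta72, 5 read higher and 4 lower (median 0.05), and with LOXL2 WT 3 higher and 6 lower (median -0.14). SPOCK1, a testican of the SPARC family, read 6.81 with LOXL2 delta72 and 6.58 with LOXL2 WT, against 5.86 in Control, on 1 probe set. That is 0.95 (1.93-fold) and 0.72 (1.64-fold) above Control, the highest of all listed matrix genes with LOXL2 delta72 and second to TNC with LOXL2 WT. TGFBI, an integrin-binding protein induced by TGF-beta, was at 0.35 with LOXL2 delta72 and 0.11 with LOXL2 WT, with 4 of 4 probe sets higher each time. THBS3 was at -0.28 and -0.49, and CCN2, connective tissue growth factor, at -0.08 and -0.35 (3 of 3 probe sets lower each time). Between the plasmids, 8 of the 9 read higher with LOXL2 delta72 than with LOXL2 WT (median 0.21), where 50.4% of all genes did (median 0.00). Of the 23 background probe sets, 20 did so too. In the other lists the counts were 7 of 11 basement membrane genes, 6 of 7 fibrillar and other collagens and 7 of 11 elastic fibre genes. They were 3 of 6 for the proteoglycans and 7 of 11 for the receptors. Whether any of these departs from the share of all genes was not tested.

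Of the 11 elastic fibre and microfibril genes above the filter, 9 read lower and 2 higher than Control with LOXL2 delta72 (median -0.14). With LOXL2 WT, 8 read lower and 3 higher (median -0.23), and 0 of 11 were at least 1.5-fold different either time. Of all genes, 49.8% read lower with LOXL2 delta72 and 51.7% with LOXL2 WT, and most background probe sets read lower too. FBLN1, the fibulin 1 gene, read 6.64 with LOXL2 delta72 and 6.36 with LOXL2 WT, against 6.92 in Control, with 7 of 7 probe sets lower on the WT array. EFEMP2, fibulin 4, which recruits lysyl oxidase to elastin, was at -0.19 and -0.46 (3 of 3 probe sets lower each time). LTBP3 was at -0.02 and -0.30, and MFAP2 at 0.04 and -0.30.

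All 6 proteoglycan genes above the filter read lower than Control on both arrays (medians -0.16 with LOXL2 delta72 and -0.16 with LOXL2 WT), none by 1.5-fold. Of all genes, 49.8% and 51.7% read lower in the same order. GPC1, a glypican, read 9.04 with LOXL2 delta72 and 9.05 with LOXL2 WT, against 9.41 in Control. SDC1, the main syndecan of squamous epithelium, read 10.11 with LOXL2 delta72 and 10.25 with LOXL2 WT, against 10.47 in Control, with 3 of 3 probe sets lower each time. SDC3 was at -0.22 and -0.42, and ACAN at -0.09 and -0.11.

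Of 18 receptors for the 10 proteins, 11 lay above the filter. With each plasmid 9 of the 11 read lower than Control and 2 higher (medians -0.15 with LOXL2 delta72 and -0.18 with LOXL2 WT). Of all genes, 49.8% read lower with LOXL2 delta72 and 51.7% with LOXL2 WT. ITGB8, an integrin chain that activates latent TGF-beta, read 7.15 with LOXL2 delta72 and 7.66 with LOXL2 WT, against 7.83 in Control, on 1 probe set. The delta72 array was the low one, at -0.68 from Control (1.61-fold lower), while LOXL2 WT was at -0.18. ITGB5 was at -0.53 and -0.58 on 1 probe set. ITGB4, the laminin-binding chain of hemidesmosomes, was at -0.36 and -0.45 (8 of 8 probe sets lower each time), and ITGA2, a chain of a collagen receptor, at -0.28 and -0.37 (2 of 2 lower).

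**Figure D3:**
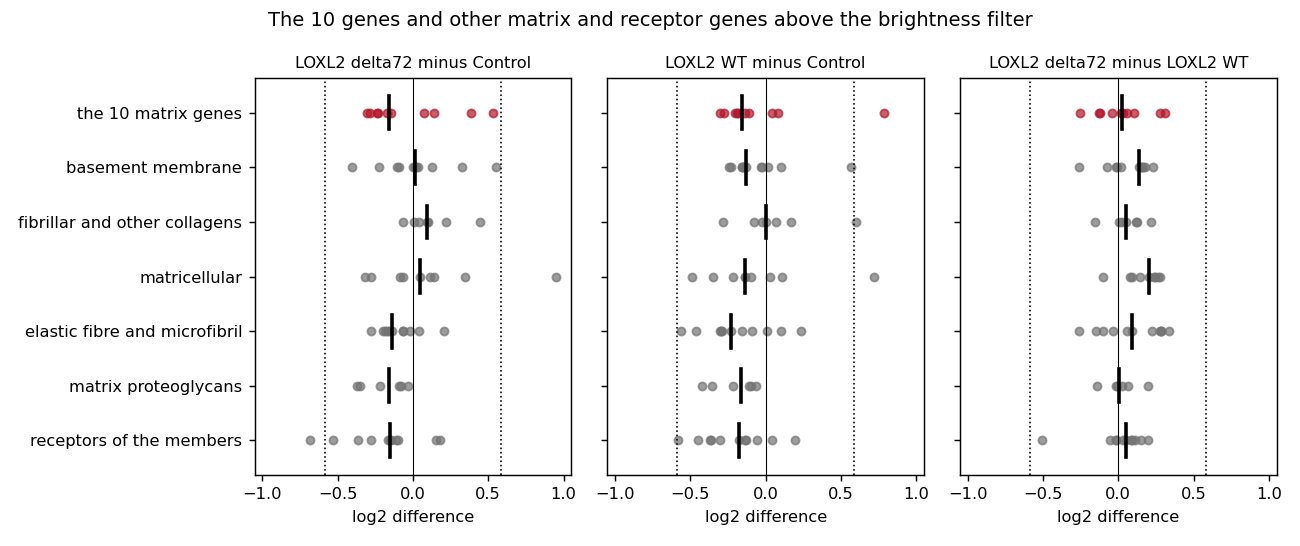
Log2 difference (horizontal axis) of each gene above the filter in the 10-gene set and in 6 further lists (rows), for the 3 comparisons. Each point is a gene at its brightest probe set, black bars are list medians and dotted lines mark 1.5-fold; the elastic fibre, proteoglycan and receptor medians lie below 0 in both comparisons with Control, as does that of the 10 genes.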

How the data were processed

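One table of 49395 probe sets on 3 arrays was used. The deposited values are log2 intensities, read as such from their span. Partek and Affymetrix Expression Console are listed in the submitters' processing notes; how background was corrected and arrays normalized is not stated there. Per the labels' protocols, 100 ng of total RNA went into cRNA labelling. Genes were named from probe sets with 1 symbol (44988, against 1832 with several and 2473 with none), and all 41 probe sets of the 10 genes matched RefSeq by Entrez identifier and symbol. A gene was read at its brightest probe set, by the mean of the arrays, and 12232 genes whose mean reached log2 5.27, the 40th percentile of non-control probe sets, were kept. Differences were taken between single arrays and counted at 1.5-fold, with Python 3.11.15 and pandas 2.3.3. The number of arrays limits the precision. The counting was tested on simulated data with planted changes larger than any difference of the 10 genes, so that test does not bear on differences of their size. Further genes named were LOXL2, up to 4 per list with the largest difference from Control, and the 3 nearest in pattern to TNC and COL7A1. Members and lists were chosen with earlier results of these data known.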

Additional observations from a re-analysis of the deposited data

How the results depend on the processing

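Common-median shift, quantile normalization, the median of each gene's probe sets, no filter and a 60th percentile filter were tried. Under all 5 the members' median difference kept its sign, from -0.19 to -0.10 for LOXL2 delta72 minus Control and from -0.31 to -0.13 for LOXL2 WT minus Control. The -0.19 came with the common-median shift, under which the median of all genes was -0.03 in place of 0. With no filter the members' medians could not change, since all 10 genes already passed. With the median over probe sets, the count at least 1.5-fold higher with LOXL2 WT was 0 in place of 1 (TNC at 0.46), and the median of LOXL2 delta72 minus LOXL2 WT was 0.19 in place of 0.02, over 9 genes, since SPARC fell under the filter. That setting takes the middle level over each gene's probe sets on each array, not the median of the probe-set differences. It also gave THBS1 -0.56 and FN1 -0.32 with LOXL2 WT. The medians of the differences of their probe sets above the filter were -0.19 and -0.17. Of 144 single-gene values, 134 moved by less than the pooled probe SD and 5 changed sign, 3 of them for FN1 against Control and the others for THBS1 and LAMC1 between the plasmids. Most of the 134 say little about stability. The 2 filter settings cannot change a gene's value, because its brightest probe set is chosen before filtering. The common-median shift moves all genes of a comparison by 1 same amount. All 10 values that moved came from the median over probe sets. Over all genes, the counts at least 1.5-fold higher and lower between the plasmids, 22 and 5, were 40 and 16 with no filter, 11 and 0 with the 60th percentile filter and 15 and 3 with the median over probe sets. No paired analysis was possible because each condition has 1 array. Without detection calls, whether dim probe sets lie above background is unknown.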
